A study of Mus musculus with 24 samples.

Results

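Undifferentiated mouse embryonic stem cells (ESCs) without the Polycomb gene Eed were compared with wild-type (WT) ESCs on day 0, before differentiation was started. The 8 arrays whose titles place them on day 0 were taken, of 24 arrays in the series; the other 16 are embryoid bodies of the same cells on days 3 and 7, aggregates that form without LIF. Of the 8, 4 hold Eed knockout (KO) cells, 2 arrays of line E14 and 2 of line J1. The other 4 hold WT cells, 2 arrays of line J1 and 2 of line V6.5. All were cultured with serum and LIF, a cytokine that holds ESCs undifferentiated, on a feeder layer of mouse embryonic fibroblasts blocked from dividing with Mitomycin C. The labels name no other allele or agent. Each of the 4 combinations of genotype and line is called a clone here, a word the labels do not use. They do not give the deleted stretch of Eed, the number of independent KO clones in a line, whether the 2 arrays of a line are separate cultures, or whether feeders were removed before RNA was taken. The p-values below therefore measure a spread between arrays, pooled over all 24 of the series, days 3 and 7 included. Within a line that spread may be technical, and in comparisons over both lines it also holds differences between lines. V6.5 is a hybrid line from a cross of inbred strains, while E14 and J1 each come from an inbred background, so J1 is the only line present in both genotypes and E14 KO differs from V6.5 WT in line as well as in genotype.

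EED is the subunit of Polycomb repressive complex 2 (PRC2) that binds methylated histone H3 tails and is needed for the enzymes EZH2 and EZH1 to methylate a lysine of the histone H3 tail, a mark of repressed genes. A second complex, PRC1, ubiquitinates histone H2A at many of the same promoters. In ESCs both complexes sit on the promoters of developmental transcription factors, whose genes are kept at a low level there, while ESCs without PRC2 can still be grown.

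Expression was measured on Affymetrix Mouse Gene 1.0 ST arrays as log2 RMA values, so a difference of 1 is a 2-fold difference. Repeat arrays of a line correlated at r = 0.992 to 0.995 across genes, and 21 (V6.5) to 82 (WT J1) genes lay 2-fold apart within a line. The number of arrays limits the precision, and levels of different genes are not compared because each probe set has its own response. Eed ranged from 7.06 to 7.48 over the KO arrays and from 10.28 to 11.02 over those of WT, a difference of −3.44 (SE 0.226, adjusted p = 2.7e-09, n = 4 and 4), and a second Eed probe set, which is not used here, read 5.59 to 6.04 in all 8. The labelled cell type was checked against its markers: Pou5f1, the defining transcription factor of ESCs, read 12.30 to 12.65 in the 8 arrays, Sox2 11.74 to 12.16 and Nanog 11.56 to 12.83. In bulk RNA, fewer cells of a type and less RNA per cell cannot be told apart.

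Loss of Eed went with more RNA of a small set of genes. A gene was called when its Benjamini-Hochberg adjusted p from limma was under 0.05 over 19938 genes and its groups differed by at least 1 on the log2 scale. By this rule 110 genes were called, 0.552% of those tested, with 92 higher in KO (0.461%) and 18 lower (0.0903%). In all 110 the means of both KO lines were above, or below, those of both WT lines, and for 102 no KO array overlapped a WT array, against 11.3% of all genes tested. The median difference was 1.28 among the genes called higher and −1.37 among those called lower, beside −0.03 for all genes. The rule chose these genes by differences on the same arrays. The line order, the lack of overlap and the medians therefore follow largely from that choice and are no separate evidence. Of the 110, 36 stand in at least 1 of 31 gene lists and 74 in none. Each list count below is to be read beside the shares over all genes, 0.461% called higher and 0.0903% called lower. All lists were drawn up with earlier results of these data known, so their counts are not independent of those results. With the arrays of each line averaged first, 20 of the 110 were called (0.1% of all genes), 16 higher (0.0802%) and 4 lower (0.0201%), and leaving out WT V6.5 replicate 2 gave 71 genes. Uncalled list members set beside called ones below were mostly chosen after their values were seen.

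**Figure D1:**
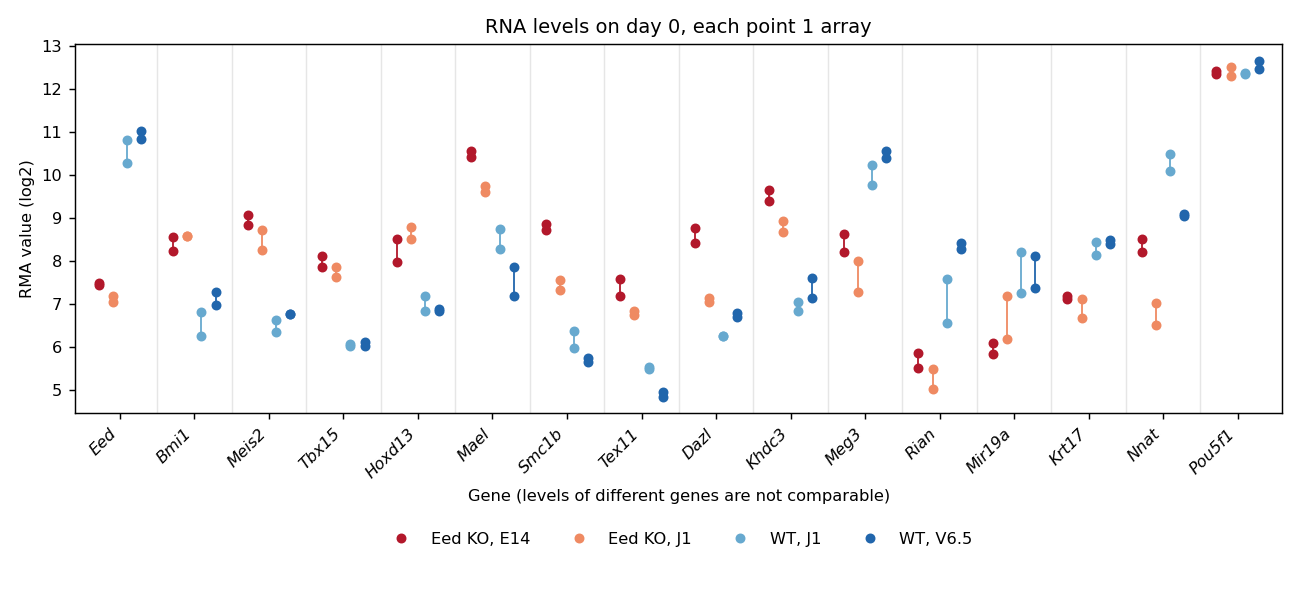
RMA values (log2, vertical axis) of 16 genes in the 8 day 0 arrays; each point is 1 array, a line joins the 2 arrays of a clone, and colours give genotype and line. Eed, Meg3, Rian, Mir19a, Krt17 and Nnat lie lower in KO without overlap, Bmi1, Meis2, Tbx15, Hoxd13, Mael, Smc1b, Tex11, Dazl and Khdc3 lie higher without overlap, and the Pou5f1 arrays overlap between 12.30 and 12.65.

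Among the 13 PRC2 subunits measured, Eed alone was called (1 lower, 0 higher), and the list median was 0.04. Ezh2, which carries the methyltransferase activity, read 11.53 and 11.64 in KO E14, 11.97 and 11.94 in KO J1, 11.58 and 11.72 in WT J1 and 11.22 and 11.38 in WT V6.5. KO and WT arrays overlapped, and the difference of 0.30 (SE 0.165, adjusted p = 0.49) was not called. Suz12, the scaffold of the complex, differed by −0.08 and Ezh1, the second methyltransferase, by −0.17, also with overlapping arrays. Jarid2, a DNA-binding partner of PRC2, read 12.34 to 12.55 in KO and 12.08 to 12.26 in WT without overlap, and its difference of 0.32 (adjusted p = 0.39) was not called.

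Of 22 PRC1 subunits, 1 was higher and none lower, with a median of 0.20. This was Bmi1, a ring-finger subunit also known as Pcgf4, which read 8.56 and 8.23 in KO E14, 8.58 and 8.57 in KO J1, 6.26 and 6.82 in WT J1 and 6.99 and 7.27 in WT V6.5. All 4 KO arrays were above all 4 WT arrays, by 1.65 on average (SE 0.197, adjusted p = 3.2e-05), and the call held with averaged arrays. Commd3, chosen after its values were seen because it is the tested gene next to Bmi1 on chromosome 2, was also higher (1.01, SE 0.239, adjusted p = 0.025). Its arrays read 9.55 to 9.93 in KO and 8.53 to 8.84 in WT. The paralog of Bmi1, Pcgf2, went from 9.06 to 9.46 in WT and 8.81 to 9.19 in KO, and its difference of −0.23 was not called. The other PRC1 members spanned −0.33 (Rnf2, a catalytic ubiquitin ligase) to 0.44 (Phc1, a polyhomeotic subunit).

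Developmental transcription factors are the textbook targets of PRC2. Of 90 measured homeobox, T-box and other developmental factors 3 were higher and none lower, for 16 the arrays did not overlap with KO higher, against 6.33% of all genes, 59 had a positive and 31 a negative difference, and the median was 0.09. Meis2, a homeobox cofactor of Hox proteins, read 8.84 and 9.07 in KO E14, 8.26 and 8.73 in KO J1, 6.36 and 6.64 in WT J1 and 6.77 and 6.78 in WT V6.5. Its KO arrays were all higher, by 2.09 (SE 0.231, adjusted p = 1.3e-05), and the call held with averaged arrays. Tbx15, a T-box factor of limb and skeleton, read 7.64 to 8.12 in KO and 6.02 to 6.11 in WT, a difference of 1.82 (SE 0.284, adjusted p = 7.8e-04). En2, a homeobox gene of the midbrain and hindbrain, read 8.23 to 8.73 in KO and 7.01 to 7.45 in WT, a difference of 1.32 (SE 0.227, adjusted p = 0.0021). The J1 KO arrays of En2, at 8.73 both, lay above those of E14, at 8.23 and 8.34.

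The Hox genes, which pattern the body axis, were called in the Hoxd cluster alone. Of 37 measured, 2 were called higher and none lower, 31 had a positive difference, and for 15 the arrays did not overlap with KO higher, against the same 6.33%. Hoxd13 read 8.52 and 7.97 in KO E14, 8.51 and 8.79 in KO J1, 7.18 and 6.83 in WT J1 and 6.84 and 6.89 in WT V6.5. Hoxd10 read 7.37 to 7.78 in the same KO arrays and 6.09 to 6.21 in those of WT. In both genes every KO array was above every WT array, with differences of 1.51 (SE 0.199, adjusted p = 1.5e-04) and 1.40 (SE 0.194, adjusted p = 2e-04), and both calls held with averaged arrays. Hoxc13 (0.98, adjusted p = 0.0017), Hoxc12 (0.94, adjusted p = 0.0031), Hoxd11 (0.92, adjusted p = 0.0094), Hoxd8 (0.90, adjusted p = 0.026) and Hoxa13 (0.73, adjusted p = 0.029) passed the p threshold but not the 2-fold minimum. None of the Hoxb genes was called; the one with the biggest difference, Hoxb9, stood at 0.50 (adjusted p = 0.088).

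Genes of the germline and meiosis made up the list with the most calls. Germ cell genes are held silent in most other cells, many of them by DNA methylation and by the PRC1 variant that contains PCGF6, MGA and E2F6. Of 51 measured, 13 were higher in KO and none lower, against 0.461% and 0.0903% of all genes. Members of the list were chosen with earlier results of these data known, so its share of calls is no separate evidence. A positive difference was seen for 40 and a negative one for 11, and the median was 0.34. For 20 the arrays did not overlap with KO higher and for 2 with KO lower, against 6.33% and 5.01% of all genes. The mean over the list was 7.64 and 7.72 in the E14 KO arrays, 7.31 in both J1 KO arrays, 7.07 and 7.00 in WT J1 and 6.84 and 6.80 in WT V6.5. The E14 KO arrays were thus the highest and the V6.5 WT arrays the lowest. Leaving out 1 array at a time gave 12 to 15 called genes, leaving out E14 KO gave 6, and averaging arrays gave 2, Tex11 and Mov10l1.

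Genes of the meiotic chromosome axis and of recombination were the first group of these. Smc1b, a meiosis-specific cohesin subunit, read 8.87 and 8.72 in KO E14, 7.55 and 7.32 in KO J1, 6.38 and 5.99 in WT J1 and 5.76 and 5.66 in WT V6.5. The KO arrays were all above the WT arrays (2.17, SE 0.309, adjusted p = 2.9e-04), and E14 KO was above J1 KO by 1.36, which was called. Stag3, another meiotic cohesin subunit, read 9.50 to 10.09 in the KO group and 8.07 to 8.22 in the WT group, a difference of 1.67 (SE 0.223, adjusted p = 1.6e-04). Syce1, of the synaptonemal complex, was higher by 1.65 (SE 0.228), and the X-linked recombination gene Tex11 by 1.88 (SE 0.225, adjusted p = 3.2e-05). M1ap, needed in meiosis I of males, was higher by 1.75 (SE 0.338), and Zcwpw1, a histone reader at recombination sites, by 1.08 (SE 0.186). For M1ap, V6.5 WT was also called lower than J1 WT, by −1.63, and its difference of 0.96 in the J1 pair was not called. Not all meiotic genes followed: the synaptonemal gene Sycp3 read 7.61 to 8.32 in KO and 7.34 to 8.34 in WT (0.12), Spo11, which makes meiotic DNA breaks, differed by −0.13, and Syce2 by −0.58 (adjusted p = 0.028, under 2-fold).

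The piRNA pathway, in which small RNAs silence transposons in germ cells, formed the second group. Mael read 10.55 and 10.42 in KO E14, 9.75 and 9.61 in KO J1, 8.75 and 8.28 in WT J1 and 7.87 and 7.18 in WT V6.5. Each of the 4 KO arrays was above each WT array, by 2.07 on average (SE 0.285, adjusted p = 1.9e-04). Mov10l1, the helicase of piRNA production, read 8.05 to 8.52 in KO and 7.03 to 7.29 in WT (1.11, SE 0.167, adjusted p = 5.2e-04). Tdrkh, a Tudor protein of piRNA processing, was called at 1.11 (adjusted p = 0.040). This call was lost without any 1 of 7 of the 8 arrays (adjusted p up to 0.13), and with clone-by-day as the random block (adjusted p = 0.071). Other members of the pathway were not called: Piwil2 differed by 0.70 (adjusted p = 0.017), Asz1 by 0.32, Tdrd1 by 0.18, Tdrd9 by −0.08 and Tdrd12 by −0.20.

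Regulators and other germ cell genes completed the 13. Dazl, an RNA-binding protein of germ cells, read 8.42 and 8.76 in KO E14, 7.04 and 7.15 in KO J1, 6.26 in both arrays of WT J1 and 6.69 and 6.79 in WT V6.5. The groups did not overlap (1.34, SE 0.278, adjusted p = 0.0093), and E14 KO exceeded J1 KO by 1.50. Sohlh2, a transcription factor of spermatogonia and oocytes, was higher by 1.59 (SE 0.259), Slc25a31, the germ cell ADP/ATP carrier of mitochondria, by 1.55 (SE 0.214), and Stk31, a kinase of germ cells, by 1.30 (SE 0.197). Ddx4, the helicase known as Vasa, read 8.12 to 8.70 in KO and 8.05 to 8.39 in WT (0.21) and was not called. Dnmt3l, a cofactor of DNA methylation in germ cells, read 11.03 to 11.55 in KO and 10.12 to 10.88 in WT, without overlap but not called (0.68, adjusted p = 0.41).

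The promoters of these genes were searched for the letters CACGTG, the E-box that MGA and MAX bind, and GCGGGA, the core of E2F sites, on both strands; the 2 motifs can share a G where they touch. The window ran from 250 bases before to 50 bases after the start, from RefSeq on build GRCm38.p6, and 15614 of the tested genes had one. CACGTG stood in 35.6% of the promoters of the germline list (16 of 45) and in 8.38% of all promoters, and GCGGGA in 46.7% (21 of 45) and in 27.7%. Both motifs contain the bases CG. The median count of CG was 18 in the promoters of the list, 19 in those of genes called higher and 15 in all. The part of base composition in the motif shares was not tested. Within the list, called genes held CACGTG in 41.7% (5 of 12) and genes not called in 33.3% (11 of 33), while GCGGGA stood in 41.7% and 48.5% (16 of 33). Of all genes called higher with a promoter, 20.3% (14 of 69) held CACGTG and 9 of the 69 both motifs, which 2.97% of all promoters hold. A match is only a description of the sequence, and the germline list was chosen with earlier results of these data known. The promoters of the 3 called germline genes that held both are shown 5′ to 3′, with the motifs or their reverse complements in capitals.
Mael, chr1:166238695-166238994, minus strand: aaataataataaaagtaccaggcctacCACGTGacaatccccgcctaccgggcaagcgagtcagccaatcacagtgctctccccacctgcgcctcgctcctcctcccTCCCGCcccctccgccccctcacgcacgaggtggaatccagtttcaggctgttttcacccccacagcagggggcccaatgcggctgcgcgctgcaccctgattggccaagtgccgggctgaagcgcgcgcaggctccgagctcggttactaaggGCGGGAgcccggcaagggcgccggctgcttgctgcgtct
Slc25a31, chr3:40708621-40708920, plus strand: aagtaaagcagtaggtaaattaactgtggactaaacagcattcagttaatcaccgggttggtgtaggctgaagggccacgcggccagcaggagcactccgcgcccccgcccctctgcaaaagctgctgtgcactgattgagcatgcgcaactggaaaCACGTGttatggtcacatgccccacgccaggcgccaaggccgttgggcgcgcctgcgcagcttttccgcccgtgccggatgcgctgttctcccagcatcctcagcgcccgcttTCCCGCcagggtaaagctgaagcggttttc
Stag3, chr5:138280259-138280558, plus strand: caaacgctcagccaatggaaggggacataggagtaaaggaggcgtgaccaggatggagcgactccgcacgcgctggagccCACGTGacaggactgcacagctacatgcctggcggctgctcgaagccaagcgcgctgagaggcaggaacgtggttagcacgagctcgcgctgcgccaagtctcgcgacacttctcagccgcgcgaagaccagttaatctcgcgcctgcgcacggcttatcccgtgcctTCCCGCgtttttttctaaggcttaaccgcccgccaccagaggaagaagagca

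Genes of oocytes and early embryos gave single calls. Of 21 oocyte and maternal effect genes 1 was higher, Khdc3, a part of the maternal complex under the oocyte membrane. It read 9.40 and 9.64 in KO E14, 8.67 and 8.93 in KO J1, 7.06 and 6.85 in WT J1 and 7.60 and 7.15 in WT V6.5. All KO arrays were above all WT arrays (1.99, SE 0.192, adjusted p = 2.1e-06), and the call held with averaged arrays. All 9 measured Pramel genes, a family expressed in germ cells and early embryos, had a positive difference, and Pramel13 was called (1.44, adjusted p = 0.016; 0.061 at most without 1 of the V6.5 arrays, where the call was lost). None of 9 2-cell-like genes, which mark a rare state of ESC cultures, was called. Their mean was 5.96 and 6.46 for E14 KO, 5.25 and 5.18 for J1 KO and 5.05 to 5.27 for WT, so that E14 KO replicate 2 stood highest. In that array Usp17la read 7.10 and Tdpoz3 6.78, against 4.03 to 4.72 for both genes in the 6 arrays of the other 3 clones.

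Of the 18 genes lower in KO, 5 are noncoding RNAs of an imprinted region of chromosome 12 that runs from Dlk1 to Dio3. In this region the maternal chromosome makes the noncoding RNAs Meg3 and Rian and a large array of miRNAs and snoRNAs, and the paternal one makes Dlk1, Rtl1 and Dio3. Of 43 measured genes of the region 5 were lower and none higher; 41 had a negative difference and for 24 the arrays did not overlap with KO lower, against 5.01% of all genes. Many of these genes come from shared transcripts, so they are not independent. Meg3 read 8.21 and 8.62 in KO E14, 8.01 and 7.28 in KO J1, 10.23 and 9.76 in WT J1 and 10.39 and 10.55 in WT V6.5. The KO arrays were all lower, by −2.20 (SE 0.244, adjusted p = 1.3e-05), with −2.35 in the J1 pair and −2.05 between E14 KO and V6.5 WT.

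The same direction was seen further along the maternal transcripts. DQ267102, a noncoding RNA of the region, read 6.95 to 8.38 in KO and 10.50 to 11.90 in WT (−3.60, SE 0.357, adjusted p = 2.8e-06). Rian read 5.03 to 5.87 in KO and 6.55 to 8.42 in WT (−2.23, SE 0.311, adjusted p = 2.1e-04). Mir377 read 4.01 to 4.41 in KO and 5.69 to 6.15 in WT (−1.86, adjusted p = 0.013) and Mir380 3.19 to 3.62 and 4.69 to 5.18 (−1.46, adjusted p = 0.023); Mir380 lost its call without the first array of either KO line or the second of either WT line (adjusted p of 0.061 at most). None of the region's protein-coding paternal genes was called: Dlk1 differed by 0.13 and Dio3 by 0.88, the 2 positive values of the list, and Rtl1 by −0.32. Calls of DQ267102 and Meg3 held with averaged arrays. Whether the probe sets named for miRNAs read the mature or the precursor RNA is not given in the sources used here.

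A second group of miRNAs was lower, the cluster of Mir17, Mir18, Mir19a, Mir20a and Mir19b-1 on chromosome 14, which is cut from the host transcript Mir17hg and known for driving proliferation. Mir17, Mir18 and Mir20a were chosen after their values were seen. All 5 tested genes of the cluster, which are neighbours in the gene order, were called, and 2 pairs of them share a seed, the stretch of bases 2 to 8 that pairs with targets. One arm of each of these and of Mir377 and Mir380 is shown from RefSeq (build GRCm38.p6), 5′ to 3′, with the seed in capitals.
miR-17-5p, chr14:115043684-115043706, plus strand: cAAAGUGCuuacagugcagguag
miR-20a-5p, chr14:115044183-115044205, plus strand: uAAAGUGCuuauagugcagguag
miR-18a-5p, chr14:115043867-115043889, plus strand: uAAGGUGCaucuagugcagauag
miR-19a-3p, chr14:115044048-115044070, plus strand: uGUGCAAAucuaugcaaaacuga
miR-19b-3p, chr14:115044358-115044380, plus strand: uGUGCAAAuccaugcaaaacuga
miR-377-3p, chr12:109740553-109740574, plus strand: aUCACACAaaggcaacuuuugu
miR-380-3p, chr12:109711842-109711863, plus strand: uAUGUAGUaugguccacaucuu
The sequences of miR-17-5p and miR-20a-5p share 1 seed and those of miR-19a-3p and miR-19b-3p another, while miR-377-3p and miR-380-3p share a seed with none of the others.

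Mir17 read 5.93 and 5.62 in KO E14, 6.01 and 5.67 in KO J1, 6.71 and 6.67 in WT J1 and 6.65 and 7.50 in WT V6.5. The KO arrays were all below the WT arrays (−1.08, SE 0.261, adjusted p = 0.029). Mir18 read 7.49 to 8.38 in KO and 8.66 to 9.55 in WT (−1.13, adjusted p = 0.018), and Mir19a 5.85 to 7.19 and 7.25 to 8.20 (−1.40, adjusted p = 0.018). For Mir20a (−1.19, adjusted p = 0.048) and Mir19b-1 (−1.31, adjusted p = 0.025) J1 KO replicate 2, at 6.95 and 7.56, reached into the range of WT. In each of the 4 clones replicate 2 was above replicate 1 for Mir18, Mir19a and Mir20a. The host transcript Mir17hg read 7.93 to 8.31 in KO and 8.73 to 9.26 in WT without overlap, a difference of −0.85 (SE 0.216, adjusted p = 0.039) that stayed under 2-fold. Members of the related clusters elsewhere were not called: the X-linked Mir106a differed by −0.39, Mir20b by −0.24 and Mir19b-2 by −0.57, and Mir106b, Mir93 and Mir25 by −0.10, −0.24 and −0.39. The calls of the cluster rest on few arrays: 0 of 5 remained without WT V6.5 replicate 2, 1 without KO E14 replicate 1, KO E14 replicate 2 or WT J1 replicate 2, and 2 without KO J1 replicate 1.

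Of the other falls, Miip and Fv1, a retrovirus restriction gene, are neighbours on chromosome 4 and were chosen after their values were seen. Both were lower by −1.10 (adjusted p = 0.0078 and 0.032), and both were also called higher in V6.5 WT than in J1 WT, by 1.05 each. Nnat, an imprinted gene of neurons and endocrine cells, read 8.22 and 8.52 in KO E14, 6.52 and 7.03 in KO J1, 10.49 and 10.10 in WT J1 and 9.10 and 9.04 in WT V6.5. Its groups did not overlap (−2.11, SE 0.384, adjusted p = 0.0038), but the J1 pair differed by −3.52 and the other pair by −0.70, and this gap between the pairs was itself called. Krt17, a keratin, read 6.67 to 7.18 in KO and 8.14 to 8.48 in WT (−1.34, SE 0.151, adjusted p = 1.5e-05), a call that held with averaged arrays. Ntn1, a secreted axon guidance cue and the 1 called gene of 20 in that list, read 7.90 to 8.05 in KO, 8.47 and 9.62 in WT J1 and 9.93 and 9.78 in WT V6.5 (−1.48, SE 0.253, adjusted p = 0.0021). Glod5, a little studied X-linked gene, was lower by −1.29 (SE 0.250, adjusted p = 0.0059), with WT J1 (8.27 and 8.75) above V6.5 (7.55 and 7.90). Of 45 imprinted genes measured elsewhere in the genome, Nnat was the 1 called lower and Igf2, a fetal growth factor, the 1 called higher. Igf2 read 9.13 to 9.90 in KO and 8.03 to 8.91 in WT (1.08, SE 0.264, adjusted p = 0.030), and without 1 of 5 arrays (both of KO E14, KO J1 replicate 1, WT J1 replicate 2 or WT V6.5 replicate 2) the call was lost.

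**Figure D2:**
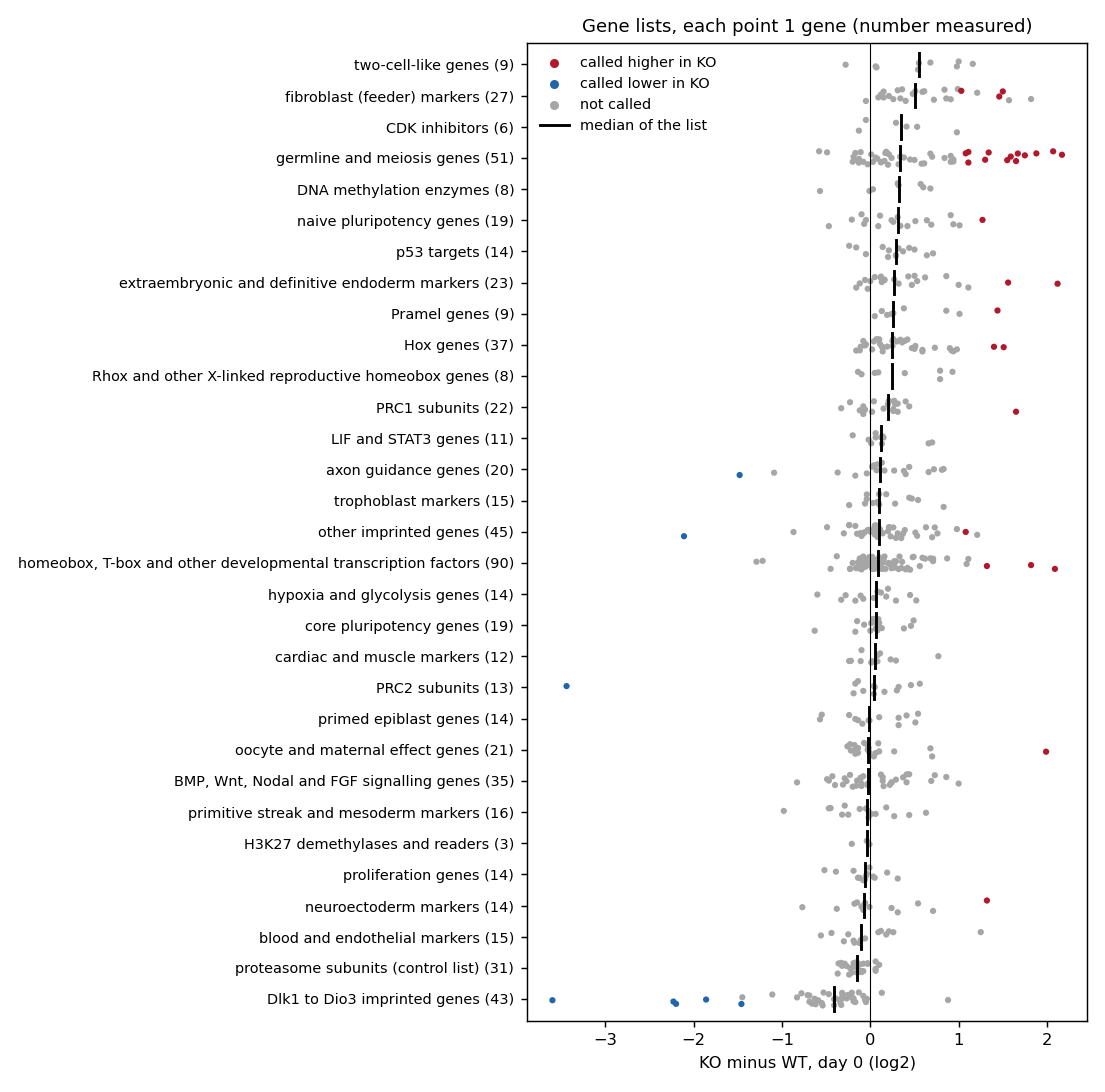
KO minus WT difference on day 0 (log2, horizontal axis) of the members of 31 gene lists, ordered by their median (black bars); red and blue points are genes called higher and lower in KO. The germline and meiosis list holds the most red points (13), and the Dlk1 to Dio3 list, with the lowest median (−0.41), holds 5 of the 18 genes called lower.

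None of 19 core pluripotency genes was called and their median was 0.06. Pou5f1 read 12.30 to 12.51 in KO and 12.35 to 12.65 in WT (−0.07, SE 0.176), and Sox2 differed by 0.04. Nanog read 12.83 and 12.73 in KO E14, 11.80 and 12.22 in KO J1, 11.56 and 12.06 in WT J1 and 12.03 and 12.08 in WT V6.5 (0.46, SE 0.325, adjusted p = 0.64), so that only the E14 KO arrays stood above WT. In the list of 19 genes of naive pluripotency, the state of the early epiblast, 1 was higher and the median was 0.31. This was Tbx3, at 10.59 and 10.73 in KO E14, 9.60 and 9.58 in KO J1, 8.14 and 8.34 in WT J1 and 9.58 and 9.37 in WT V6.5. J1 KO and V6.5 WT met at 9.58, and the call (1.27, adjusted p = 0.045) was lost without any of 6 arrays (adjusted p of 0.040 to 0.14 over all 8), and with clone-by-day as the random block (adjusted p = 0.11). Zfp42 differed by 0.69, Klf4 by 0.42 and Esrrb by 0.34, and none of 14 primed epiblast genes was called.

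Growth control genes gave values without calls. Cdkn2a, which encodes the cell cycle inhibitors p16 and p19 and is a classic Polycomb target in fibroblasts, read 8.21 to 8.78 in KO and 7.35 to 7.64 in WT. The groups did not overlap, and the difference of 0.98 (SE 0.210, adjusted p = 0.013) missed the 2-fold minimum. Of the other CDK inhibitors Cdkn1c differed by 0.53 (adjusted p = 0.57), and none of 14 proliferation genes or 14 p53 targets was called. Among 31 proteasome subunits, taken as a control, none was called either (median −0.15). Yet 27 had a negative and 4 a positive difference, and for 7 the arrays did not overlap with KO lower, against 5.01% of all genes. Their list mean was 11.19 to 11.29 in KO and 11.35 to 11.46 in WT, so every KO array was below every WT array. A small shift of a whole list between genotypes was thus seen in the control too.

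Markers of other cell types were examined because ESCs grew on fibroblasts and can differentiate in culture. Of 27 fibroblast markers 3 were higher, 26 had a positive difference, for 12 the arrays did not overlap with KO higher (6.33% of all genes), and the median was 0.51. Thbs1, a matrix glycoprotein, read 10.19 and 11.22 in KO E14, 10.14 and 9.71 in KO J1, 8.82 and 9.09 in WT J1 and 8.73 and 8.60 in WT V6.5 (1.50, adjusted p = 0.042). Lox, a collagen crosslinker, was called at 1.46 (adjusted p = 0.031) although J1 KO replicate 2, at 7.50, lay among the WT arrays (6.67 to 7.99), and Fbln2, a matrix protein, at 1.03 (adjusted p = 0.0087). The list mean was 8.78 and 9.32 for E14 KO, 8.78 and 8.45 for J1 KO and 8.06 to 8.30 for WT, so every KO array was above every WT array and E14 KO replicate 2 was the highest. Uncalled members ranged up to Postn, a matrix protein, which read 7.79 to 10.52 in KO and 6.53 to 7.32 in WT (1.82, SE 0.722, adjusted p = 0.25), and Acta2, smooth muscle actin (1.57, adjusted p = 0.12), both without overlap. The fibrillar collagens Col1a1 (0.21), Col1a2 (0.34) and Col3a1 (0.12) were not called, and their arrays overlapped. No marker is at 0, since RMA values have no true zero. Each of the 3 calls was lost without 1 of several arrays: Thbs1 without any of 7 (adjusted p up to 0.15; 0.055 with clone-by-day as the random block), Lox without any of 5 (adjusted p up to 0.11), and Fbln2 without any of 4, where its difference fell as far as 0.90.

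Endoderm markers also held calls. Of 23 markers of extraembryonic and definitive endoderm 2 were higher, both genes of endocytosis, and the median was 0.27. A positive difference was seen for 18 and a negative one for 4, and for 8 the arrays did not overlap with KO higher (6.33% of all genes). The list mean was 7.84 to 8.11 in KO and 7.50 to 7.59 in WT, so every KO array was above every WT array. Cubn, a receptor of visceral endoderm, read 8.95 and 7.56 in KO E14, 9.12 and 7.95 in KO J1, 6.17 and 5.93 in WT J1 and 6.97 and 6.03 in WT V6.5. Replicate 1 was above replicate 2 in each of the 4 clones, and no KO array overlapped WT (2.12, SE 0.484, adjusted p = 0.020). Dab2, its adaptor, read 9.05 to 9.75 in KO and 7.26 to 8.15 in WT (1.56, adjusted p = 0.032). The transcription factors Gata6 (1.11, adjusted p = 0.12), Gata4 (0.62), Sox17 (0.32) and Foxa2 (−0.12) were not called. Without the first array of either KO line or the second of WT V6.5 both calls were lost, without WT J1 replicate 2 that of Cubn and without WT V6.5 replicate 1 that of Dab2 (adjusted p up to 0.067 for Cubn and 0.11 for Dab2).

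One WT array stood apart in primitive streak genes, which mark early mesoderm. WT J1 replicate 2 had a list mean of 7.88 over 16 genes, against 7.15 to 7.37 in the other 7 arrays. In it Mixl1 read 9.79, Eomes 9.33, Lhx1 8.38 and Wnt3 8.15, while Mixl1 read 6.71 to 7.32 elsewhere. None of the 16 genes was called between genotypes.

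The 74 called genes outside the lists included signalling and membrane genes. Inpp5d, a phosphatase of phosphoinositides, read 9.94 to 10.16 in KO and 8.09 to 8.34 in WT (1.85, SE 0.350, adjusted p = 0.0052). Dgat2, an enzyme of triglyceride synthesis, read 9.95 to 10.19 in KO and 8.11 to 8.68 in WT (1.67, SE 0.141, adjusted p = 2.5e-07). Myof, a membrane repair protein, read 9.68 to 10.17 in KO and 8.06 to 8.62 in WT (1.63, SE 0.246, adjusted p = 5.6e-04); Dgat2 and Myof kept their calls with averaged arrays. Zfp229, a zinc finger gene, was higher by 1.73 (adjusted p = 8.5e-04), Anxa1, an annexin, by 1.69 (adjusted p = 0.0080), and A2m, a protease inhibitor, by 1.69 (adjusted p = 0.021), the last call being lost without 1 of 4 arrays (adjusted p up to 0.062). Dgat2 and Myof, and the following genes, were chosen after their values were seen. Ccnd2, a D-type cyclin, read 10.59 to 11.07 in KO and 9.29 to 9.88 in WT (1.23). Emp1, Cd44, Timp3 and Inhba, membrane or secreted proteins that fibroblasts also make, were higher by 1.49, 1.14, 1.27 and 1.37; the fibroblast list mean moved the same way, as given above, and its part in these and the other calls was not tested.

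The J1 pair, with line the same on both sides, was set against the pair of E14 KO and V6.5 WT, with no array in common. Between J1 KO and J1 WT 91 genes were called (0.456%), 57 higher (0.286%) and 34 lower (0.171%), and between E14 KO and V6.5 WT 392 (1.97%), 315 higher (1.58%) and 77 lower (0.386%). The J1 count was 50 without KO J1 replicate 2, and the other 258 without KO E14 replicate 2. Of the 57 genes higher in the J1 pair 53 had a positive difference in the other pair, and of the 34 lower ones 20 had a negative one. The median over all genes in the other pair was −0.017, so a negative sign is common there. The share of signs over all genes is not given here, and 20 of 34 is not read as agreement. The same call was made in both pairs for 40 genes, 33 higher and 7 lower, which is 44% of the J1 list and 10.2% of the other. These 40 include Meis2 (1.99 in J1 and 2.18 in the other pair), Bmi1 (2.03 and 1.27), Khdc3 (1.85 and 2.14), Inpp5d (1.72 and 1.98), Tex13b, a germ cell gene on the X (1.73 and 1.55), Hoxd13, Hoxd10, Tbx15 and En2, and, among falls, Eed, Meg3, Rian, DQ267102, Mir377, Krt17 and Glod5. Of the 13 germline genes called over all arrays, 5 were called in the J1 pair: Mael, Smc1b, Stag3, Tex11 and Zcwpw1.

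**Figure D3:**
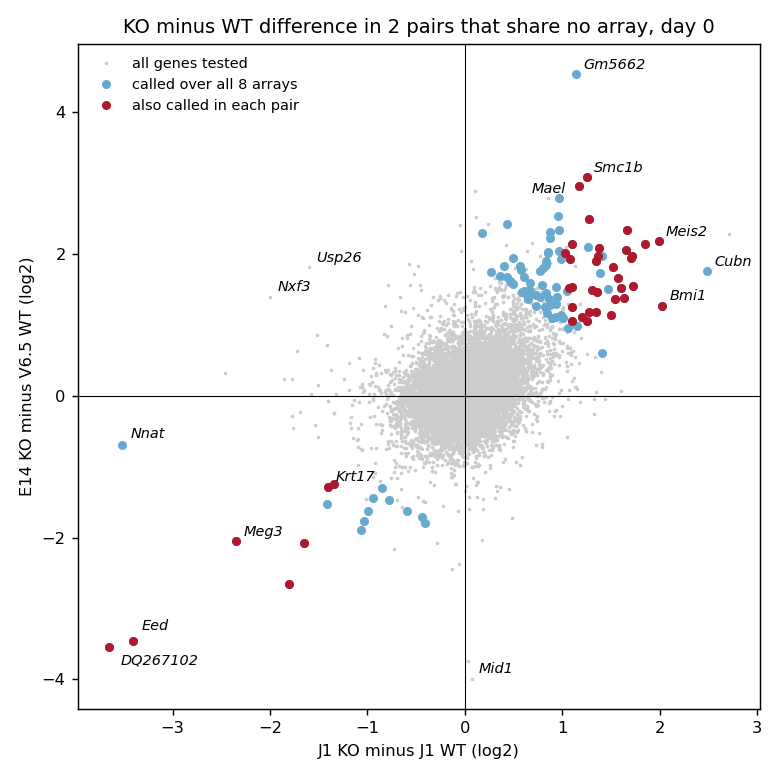
KO minus WT difference (log2) of each gene in the J1 pair (horizontal axis) and between E14 KO and V6.5 WT (vertical axis). Red points are the 40 genes called in both pairs, blue points the other genes called over all 8 arrays, and grey points all genes tested; Nnat, Nxf3, Usp26 and Mid1 lie far from the diagonal.

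The difference between the pairs was tested directly. It was called for 166 genes (0.833%), 116 with the larger value in the E14 and V6.5 pair (0.582%) and 50 with the smaller (0.251%). With each array centred on its median these were 46 and 48, and without any 1 array the total was 98 or less, with 37 as the lowest (without KO E14 replicate 2). Among the 110 genes called over all arrays it was called for 15, of which 6 were germline genes: Mael, Smc1b, Syce1, Slc25a31, Dazl and Tdrkh were each higher in KO in both pairs, with the larger difference between E14 KO and V6.5 WT. Mael, for example, differed by 1.17 in the J1 pair and by 2.96 in the other. Several genes with the largest gaps between the pairs differed between the WT lines. Mid1, an X-linked ubiquitin ligase gene, read 6.82 to 7.23 in the 6 arrays of E14 and J1 and 11.07 and 11.22 in V6.5. AI506816 read 8.17 and 8.51 in V6.5 and 3.67 to 4.94 elsewhere, and the neural factors Olig1 and Olig2 and the innate immune receptor gene Nod1 were likewise high in V6.5 alone. Usp26 and Nxf3, germ cell genes of the X, were highest in WT J1 (9.93 and 10.02 for Usp26, 8.58 and 8.66 for Nxf3) and lowest in V6.5 (5.71 and 5.99, 5.28 and 5.18), with both KO lines between them. Gbp2b, an interferon-induced GTPase, read 8.80 and 9.43 in WT J1 and 5.82 to 6.70 in the other 6 arrays, and differed by −2.46 in the J1 pair, where it was called, and by 0.32 in the other.

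Lines of the same genotype differed as well. Between E14 KO and J1 KO 79 genes were called (0.396%), 50 higher (0.251%) and 29 lower (0.145%) in E14, and between V6.5 WT and J1 WT 190 (0.953%), 52 higher (0.261%) and 138 lower (0.692%) in V6.5. With each array centred on its median the KO lines gave 34 and 36. In E14 KO the 2-cell-like genes Tdpoz3 and Usp17la, the X-linked Xlr and the zinc finger gene Zfp951 were higher than in J1 KO by 1.88, 1.86, 2.02 and 1.76. The hormone gene Trh, at 11.12 and 10.76 in E14 KO and 13.26 and 13.27 in J1 KO, was lower by −2.32, and Neurod1 by −1.81, Platr8 by −1.76 and Sema6a by −1.61. The count between the KO lines was 14 without KO E14 replicate 2, 41 without KO J1 replicate 1 and 23 without KO J1 replicate 2, and that between the WT lines 93 without WT V6.5 replicate 1. In WT, Irgm1, another interferon-induced GTPase, was lower in V6.5 by −2.99.

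The called genes were unevenly placed in the genome, by the gene order of RefSeq on build GRCm38.p6. On the X chromosome 18 genes were higher and 1 lower of 739 tested (2.57%), and on chromosome 6, 16 were higher of 1099 (1.46%), against 0.552% over all genes. The chromosome 6 count was 10 without WT V6.5 replicate 2 and 3 with averaged arrays. When called genes with at most 10 uncalled tested genes between neighbours were joined, 5 runs of 3 or more appeared, with 22 genes in all. Among them are the Dlk1 to Dio3 and Mir17 groups, and a run on chromosome 3 held Golim4, Gask1b and Rbm46. The longest lay on the X, from Nrk to Nxt2, with 7 called of 28 tested: Nrk, Radx, Rnf128, Morc4, Nup62cl, Tex13b and Nxt2, all higher, while the median over the 28 was 0.12. A second X run held Pnma5, Dusp9, a phosphatase of MAP kinases, and Slc6a8, the creatine transporter. Runs and their members were picked after their values were seen.

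Radx, a single-strand DNA-binding protein of replication forks, read 8.17 and 7.76 in KO E14, 8.21 and 8.24 in KO J1, 6.48 and 6.63 in WT J1 and 5.71 and 5.53 in WT V6.5. Nxt2, a factor of RNA export, read 10.36 to 10.58 in KO and 8.35 to 8.87 in WT. In both genes all KO arrays were higher (2.01, SE 0.289, adjusted p = 3.2e-04, and 1.86, SE 0.204, adjusted p = 1.3e-05), and both calls held with averaged arrays, as did that of Tex13b. Nrk, a kinase of the placenta, was higher by 1.88 (adjusted p = 0.013), and lost its call without WT V6.5 replicate 2 (adjusted p = 0.052). Without that array 10 X-linked genes were higher, without KO E14 replicate 2 11, and with averaged arrays 5.

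Whole chromosomes also shifted between clones. Over 8303 genes with a mean of at least 8, the median deviation of a chromosome's genes from their means was taken in each array. On chromosome 6, with 375 such genes, it was 0.05 and 0.07 in E14 KO, 0.24 and 0.30 in J1 KO, −0.12 and −0.04 in WT J1 and −0.22 and −0.24 in V6.5, so that every KO array was above every WT array. The median difference between genotypes there was 0.34 on day 0, 0.27 on day 3 and 0.37 on day 7, and 0.36 in the J1 pair and 0.29 in the other. Chromosome 11 was high in WT J1 (0.20 and 0.29; KO minus WT −0.15), chromosome 8 low in E14 KO (−0.31 and −0.25; KO minus WT −0.15), and chromosome 1 higher in E14 KO and V6.5 than in both J1 clones. The other 17 chromosomes, chromosome 1 among them, differed between genotypes by −0.04 to 0.06. With each array's chromosome-wide level taken out, an alternative added after these values were seen, 95 genes were called, 79 higher and 16 lower, 85 of them among the 110. On chromosome 6 the count went from 16 to 3: Zfp800, M1ap and St8sia1, while the others were no longer called. Some stood close to 1 of the limits: A2m at 1.38 (adjusted p = 0.069), Emp1 at 1.18 (0.056), Stk31 at 0.99 (0.013) and Ccnd2 at 0.92 (0.036). Met, at 0.73 (0.041), was further under the fold minimum, and Fbln2, at 0.72 (0.13), missed both limits. This setting lowers all chromosome 6 genes together, so calls near the 2-fold minimum are lost by its construction. On the X it went from 18 to 13, in the germline list from 13 to 12 and in the Mir17 cluster from 5 to 4. DNA copy number was not analysed here, and its part in these shifts was not tested.

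**Figure D4:**
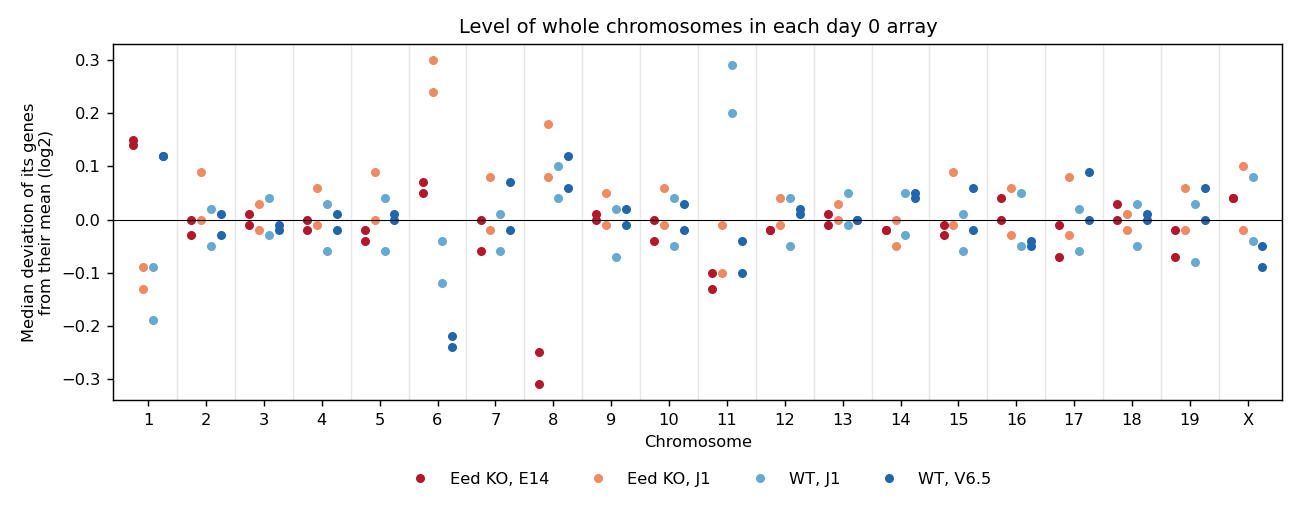
Median deviation (log2, vertical axis) of the genes of each chromosome (horizontal axis) from their mean over the day 0 arrays, each point 1 array and colours as genotype and line. Chromosome 6 separates KO (0.05 to 0.30) from WT (−0.24 to −0.04), chromosome 8 sets E14 KO apart (−0.31 and −0.25), chromosome 11 sets WT J1 apart (0.20 and 0.29), and chromosome 1 separates the J1 clones from the others.

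The genes called on day 0 were followed in the embryoid bodies of the same clones, measured on other arrays. Of the 92 genes higher on day 0, 90 had a positive difference on day 3 and 83 on day 7; 36 were called higher on day 3, where 0.667% of all genes were (0.757% in either direction), and 54 on day 7, where 3.08% were (4.36% in either direction). Their median difference was 1.28, 0.95 and 1.18 on the 3 days. Since the day 0 values chose the genes, a lower median later is not read as a change. The test of change subtracts the same day 0 values, so called changes toward 0 are favoured by that choice too. Of the 13 germline genes 8 were called higher on day 3 and 11 on day 7. Mael went from 2.07 on day 0 to 2.86 and 3.94, and the increase from day 0 to day 7 (1.87) was called. Radx went from 2.01 to 1.23 and 0.05, and Thbs1 from 1.50 to 1.44 and −0.47, with called changes to day 7 of −1.96 and −1.98. Khdc3 and Tex13b had smaller differences on day 3 than on day 0, by −1.58 and −1.25.

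The falls divided by group. Of the 18 genes lower on day 0, 16 had a negative difference on day 3 and 10 on day 7, and 8 were called lower on each of these days, where 0.0903% and 1.28% of all genes were. Meg3 went from −2.20 to −3.96 and −4.61 and Mir377 from −1.86 to −1.96 and −3.48, and the changes to day 7 (−2.40 and −1.62) were called. The 5 miRNAs of the Mir17 cluster, by contrast, stood between −0.88 and −0.21 on day 3 and between 0.02 and 0.43 on day 7, and the change to day 7 was called for all 5 (1.10 to 1.74). All 18 genes were chosen for a negative difference on day 0, which the test subtracts. Called changes toward 0, here and in the next genes, are therefore favoured by that choice. Ntn1 stood at 0.10 and 0.46, Krt17 at 0.20 and 0.24 and Glod5 at −0.14 and 0.34 on days 3 and 7; for Ntn1 and Krt17 the change was called already on day 3 (1.58 and 1.54). Over all genes the change from day 0 was called for 10 genes to day 3 (0.0502%; 0.0301% higher, 0.0201% lower) and for 673 to day 7 (3.38%; 1.93% higher, 1.45% lower). The first count was 4 without KO E14 replicate 1 and 6 without KO J1 replicate 1.

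**Figure D5:**
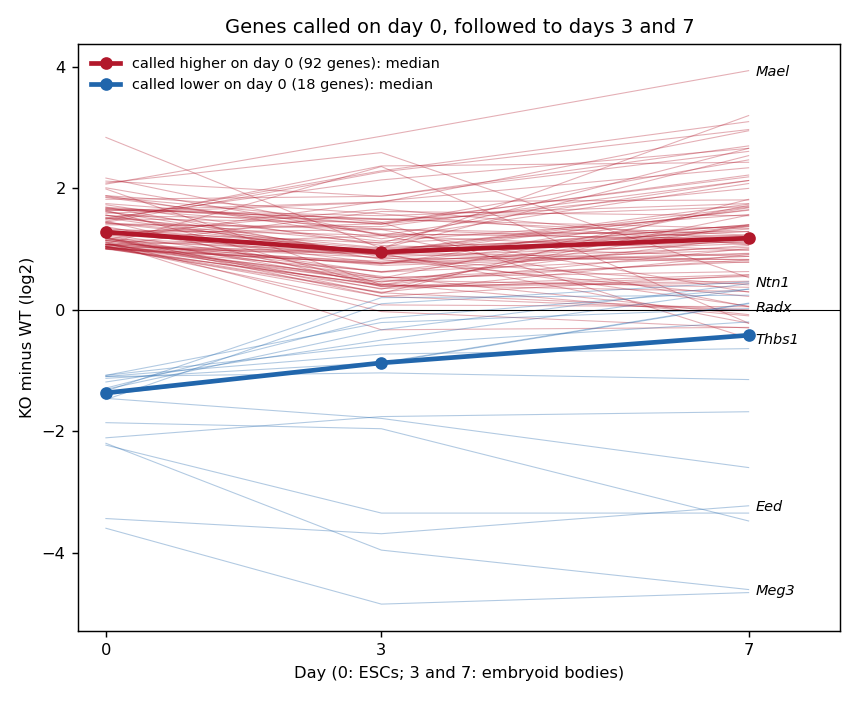
KO minus WT difference (log2, vertical axis) on days 0, 3 and 7 (horizontal axis) of the 92 genes called higher (red) and the 18 called lower (blue) on day 0; thin lines are genes and thick lines with points are medians. The median of the red genes is 1.28, 0.95 and 1.18, while that of the blue genes is −1.37, −0.88 and −0.42.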

How the data were processed

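Arrays were Affymetrix Mouse Gene 1.0 ST. The deposited log2 values come from RMA as run by the authors in Affymetrix Power Tools (submitters' processing notes); versions and build are not given in the sources at hand. RMA makes the arrays' distributions alike, which hides changes of total RNA. Of 35556 probe sets, the 21789 listed with 1 symbol were used; each of 19938 genes kept its probe set with the highest mean, with no filter on low values. limma 3.58.1 (statmod 1.5.0, R 4.3.3) fitted 6 genotype-by-day means over 24 arrays, clones being a random block (correlation 0.161); pairs of lines came from 12 line-by-genotype-by-day means without a block. SE is the model's, adjusted p-values are limma's with Benjamini-Hochberg adjustment, and the fit was tested on simulated data. Names and gene order came from RefSeq GRCm38.p6 (21698 probe sets matched). Alternatives changed the block, arrays, clones, normalization, filter, fold minimum, probe set rule and chromosome-wide level. The rule for named genes took the 15 largest rises and 10 largest falls, called list members, up to 2 members of lists without a call, preset genes and the largest of the other comparisons, passing over predicted symbols. Members, lists and tests were chosen with earlier results of these data known.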

Additional observations from a re-analysis of the deposited data

Results flagged for a closer look

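In 8 of 220 groups of 4 arrays examined, 1 array of a named gene lay far from the other 3 by Dixon's test, which chance gives in about 1 of 20 groups. These were Bmi1 in KO E14 replicate 2 (8.23), Radx in KO E14 replicate 2 (7.76), Krt17 in KO J1 replicate 1 (6.67), Ct55 in KO J1 replicate 2 (8.76), Mixl1 in WT J1 replicate 2 (9.79), Grem1 in WT J1 replicate 2 (8.77), Nanog in WT J1 replicate 1 (11.56) and Tet3 in WT V6.5 replicate 1 (7.48).

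The difference between KO and WT was another in the E14 and V6.5 pair than in the J1 pair, by limma's test of that difference, for 21 named genes, 6 of them the germline genes given above. The 6 largest gaps each way, apart from predicted genes, follow. The difference was larger for Usp26 by 3.42, Nxf3 by 3.40, Nnat by 2.82, Gbp2b by 2.78, Fmr1nb by 2.77 and Ct55 by 2.46, and smaller for Mid1 (−4.06), AI506816 (−3.77), Olig1 (−2.33), Olig2 (−2.31), Platr8 (−2.22) and Nod1 (−1.78). For Ct55 and Fmr1nb, X-linked germ cell genes, V6.5 was low (5.76 and 5.78 for Ct55, 6.08 and 6.19 for Fmr1nb) and all other arrays stood between 8.13 and 9.03.

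A change of the difference between genotypes was called from day 0 to day 3 for 5 and to day 7 for 20 of the named genes called on day 0. Changes toward 0 are favoured by the choice of these genes on day 0, as given above. To day 3 these were Meg3 (−1.76), Khdc3 (−1.58), Tex13b (−1.25), Krt17 (1.54) and Ntn1 (1.58). The 4 largest changes each way to day 7 were those of Meg3 (−2.40), Thbs1 (−1.98), Radx (−1.96), Mir377 (−1.62), Glod5 (1.63), Mir19b-1 (1.74), Mael (1.87) and Ntn1 (1.93).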

How the results depend on the processing

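Averaging the arrays of a line gave 20 genes on day 0, 0 for the change to day 3 and 229 for the change to day 7. Without a fold minimum 402 genes passed on day 0, 331 in the J1 pair, 1355 between E14 KO and V6.5 WT, 302 between the KO lines, 605 between the WT lines and 1617 for the change to day 7. Centring each array on its median gave 94 for the difference between the pairs. Leaving out a clone gave 47 genes on day 0 (without KO E14), 216 (KO J1), 272 (WT J1) and 100 (WT V6.5). Of these, in the same order, only 34, 91, 96 and 53 were among the 110 of the main fit. Leaving out single arrays gave 71 to 122 on day 0, 50 to 88 in the J1 pair, 258 to 389 between E14 KO and V6.5 WT, 37 to 98 for the difference between the pairs, 14 to 77 between the KO lines, 93 to 184 between the WT lines, 4 to 14 for the change to day 3 and 601 to 698 for that to day 7. The cause of these moves was not tested, except that averaging leaves fewer values and no fold minimum admits smaller differences. Other settings kept the day 0 count between 95 and 122. Uncalled in the comparison over all lines, 2 genes changed sign as calls without a clone: Nxf3 stood at 1.39 without WT J1 and Usp26 at −1.95 without WT V6.5. The replicate block gave 105 genes on day 0, 104 of them among the 110, and ended the calls of Tbx3 (adjusted p = 0.052), Tdrkh (0.051), Thbs1 (0.052) and the day 3 change of Ntn1 (0.055). Deviations of same-numbered arrays correlated at −0.09 to 0.43 between clones, above 0.1 in 2 of 6 pairs, and the numbers were not taken to pair the arrays. The highest value, 0.43, was between the J1 clones, and whether their same-numbered arrays were handled together was not tested. In the J1 pair the replicate block gave 99 genes, with all 91 of the main fit among them. With 2 lines a genotype, differences of line and of genotype outside the J1 pair cannot be told apart.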
